A study of Mus musculus with 6 samples.

Results

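The 9 genes described here carry vitamin A through the intestinal epithelium and answer to it: Rbp2 and Lrat (uptake and storage of retinol), Aldh1a1, Aldh1a2 and Aldh1a3 (synthesis of retinoic acid), and the receptors Rara, Rarb, Rarg and Rxra. They were chosen by gene symbol from the platform's annotation, and all 9 were found among the 19057 genes of the array. Each gene was represented by its brightest probe over the 6 arrays, and its other probes are given beside it. Transcripts were measured in mouse small intestinal organoids, epithelial structures grown in culture, on 3 arrays of Snai1 knockout organoids (strain Villin-Cre, Snai1fl/fl) and 3 arrays of control organoids (strain Villin-Cre). Both groups carried the Villin-Cre transgene, whose promoter acts in the intestinal epithelium, and both had received 0.5 µM tamoxifen for 24 hours. Snai1 encodes a zinc-finger repressor that binds E-boxes, and the series title asks how it bears on lineage allocation and stem cells. No age is labelled, and nothing tells whether arrays of 1 group derive from different mice or wells. The p-values therefore speak of the variation among these arrays, possibly technical only.

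Vitamin A reaches the enterocyte as retinol or as carotenoids, which Bco1 cleaves to retinal. Rbp2, also called cellular retinol-binding protein II, holds retinol in the cell and presents it to Lrat, the acyltransferase that makes retinyl esters for export with dietary fat. A second branch oxidises retinol to retinal, which the Aldh1a enzymes turn into retinoic acid, and Cyp26 enzymes degrade it. Retinoic acid binds receptors of the Rar family, which sit on DNA as heterodimers with an Rxr partner. Rarb is itself a textbook target of retinoic acid, through a direct repeat of a receptor hexamer just upstream of one of its starts.

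The promoters of Rbp2, Lrat and Rarb are shown for what they hold in the 250 bases before a RefSeq start in GRCm38.p6, written 5′ to 3′ on the gene's strand. The Rbp2 sequence lies at chr9:98490287-98490536 on the plus strand, and its capitals mark receptor hexamers and the letters TATAAA. The Lrat sequence lies at chr3:82903975-82904224 on the minus strand, and its capitals mark an E-box of the kind Snai1 binds. The Rarb sequence lies at chr14:16575477-16575726 on the minus strand, before a transcript start inside the gene rather than at its outer end, and its capitals mark a direct repeat with a spacer of 5 bases, called DR5.
Rbp2: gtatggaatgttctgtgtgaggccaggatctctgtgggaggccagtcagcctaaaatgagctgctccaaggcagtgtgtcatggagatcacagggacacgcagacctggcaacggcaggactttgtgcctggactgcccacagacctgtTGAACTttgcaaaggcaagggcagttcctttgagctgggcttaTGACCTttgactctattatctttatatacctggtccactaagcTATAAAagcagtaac
Lrat: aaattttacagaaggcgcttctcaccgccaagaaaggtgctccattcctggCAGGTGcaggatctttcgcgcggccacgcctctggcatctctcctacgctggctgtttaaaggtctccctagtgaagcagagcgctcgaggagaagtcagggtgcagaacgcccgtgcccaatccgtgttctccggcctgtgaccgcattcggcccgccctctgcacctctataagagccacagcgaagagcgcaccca
Rarb: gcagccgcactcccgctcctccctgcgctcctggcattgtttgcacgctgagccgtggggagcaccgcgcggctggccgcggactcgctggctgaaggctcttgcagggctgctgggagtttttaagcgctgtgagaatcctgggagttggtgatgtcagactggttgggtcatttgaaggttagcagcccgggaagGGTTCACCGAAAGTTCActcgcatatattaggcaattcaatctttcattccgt

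The Rarb repeat, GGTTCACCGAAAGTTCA, ran from 53 to 37 bases before the start. Receptor hexamers were searched on both strands as AGGTCA, as its variant AGTTCA, as the form GGGTCA and as the form GGTTCA, and direct repeats as any pair of these in 1 orientation with a spacer of 1, 2 or 5 bases. A DR5 repeat was found in 0.0883% of 32851 windows of the same length over all genes, and in 1 of the 14 windows of the 8 members with an entry in the table. That window is the one of Rarb, whose repeat was known beforehand and whose hexamers are among the forms searched. The 2 shares therefore do not measure an enrichment. None of those 14 windows held a repeat with a spacer of 1 base, present in 0.164% of all windows, or of 2 bases, present in 0.174%. Only the exact forms above were searched, so a repeat with a changed letter is not counted. In Rbp2, TGACCT is followed after 1 base by TGACTC, which on neither strand is among these forms. Single hexamers, which the repeats contain by construction, were present in 6 of the 14 windows, against 38.6% of all windows. In Rbp2 they stood at 101 to 96 bases (TGAACT) and 58 to 53 bases (TGACCT) before the start. The letters TATAAA, present in 7.59% of all windows, stood at 15 to 10 bases, and whether they act as a promoter element was not tested. The E-box CAGGTG, which reads CACCTG on the other strand, was present in 17.2% of all windows and in 5 of the 14, 1 each for Lrat, Aldh1a1, Aldh1a2, Rara and Rarg. The Lrat E-box lay 199 to 194 bases before the start. A match describes these letters only and is not evidence of binding.

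All 6 arrays share 1 distribution of values, and any pair of them correlated at r = 0.994 to 0.997 across 45281 probes. Values are taken as log2 and ran from 7.71 to 14.8 with a median of 7.87, so most probes lie within a narrow band at the low end, where differences are compressed and understated. A probe's brightness also depends on its sequence, and levels are therefore not ranked between genes. The Snai1 probes did not check the labels. The brighter one read 7.91, 7.86 and 7.96 on knockout arrays, against 7.87, 7.93 and 7.94 on control arrays, and the dimmer one 7.91, 7.83 and 7.88 on knockout arrays, against 7.88, 7.82 and 7.87 on control arrays. Brighter than 59.1% and 49.1% of all probes, these lay in the compressed band, and no label places either probe relative to the floxed exons. The tissue label was checked on marker genes. Of 12 epithelial genes 11 exceeded the upper quartile of all values, 8.27, led by Krt8, Muc13, Krt19 and Cdx2. The 1 below it was Epcam, at 8.10 on knockout and 8.13 on control arrays, named after its values were seen. Of 19 enterocyte genes 14 exceeded the quartile, and the brightest were Sis, Apoa1, Apoa4 and Slc5a1. The enterocyte markers Fabp1 (7.78 on knockout and 7.80 on control arrays) and Fabp2 (7.80 and 7.82), named after their values were seen, were at the low end. None of 29 measured mesenchymal, immune or endothelial markers exceeded the quartile, and their means lay between 7.80 and 7.97. The enterocyte markers Fabp1 and Fabp2 read as low as these, so a dim probe does not show that a transcript or cell type is absent. The brightest of the 29 were Acta2, Pdgfra, Foxl1 and Col1a2, then Zbtb46, Itgae, Csf1r and Cd3e, then Kdr, Tek, Cdh5 and Tie1.

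Between knockout and control organoids none of the 9 genes passed the test (limma, adjusted p under 0.05 over all genes), and for each of them the 3 knockout values overlapped the 3 control values. Among all genes 0.131% passed, and 12.0% had groups that did not overlap. At an unadjusted p under 0.05 the count of members was also 0, where 7.22% of all genes had one. The median difference of the 9 was -0.0047 and that of all genes -0.0006 (log2, knockout minus control), with 4 members higher on average in the knockout and 5 lower. Adjusted p ran from 0.908 for Rxra to 0.999 for Aldh1a2 and Rara.

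**Figure D1:**
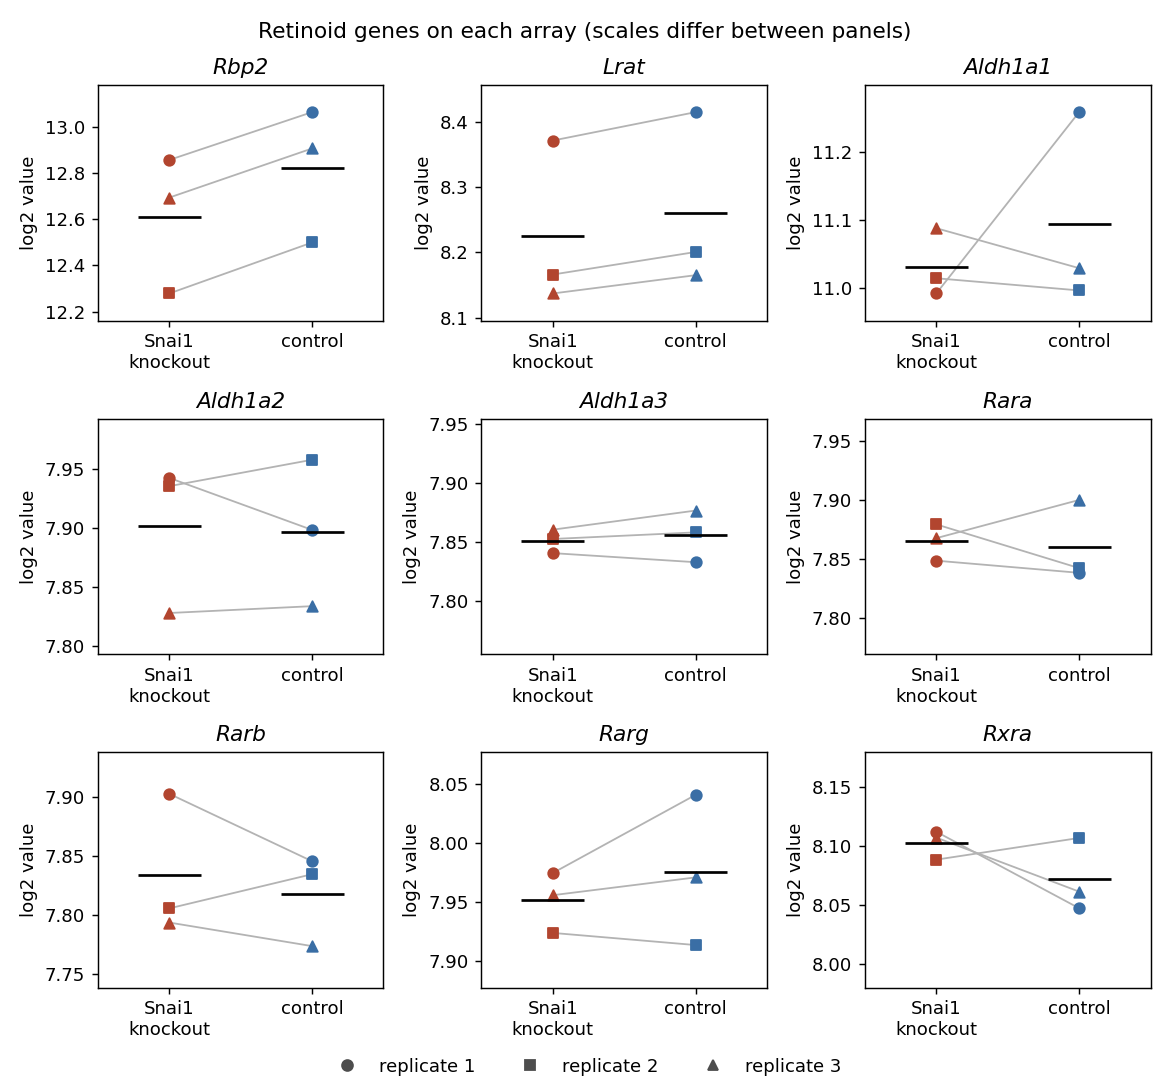
Log2 value of each of the 9 genes on each array, with Snai1 knockout arrays (red) left of control arrays (blue), bars at the group means and grey lines joining arrays of the same replicate number; the scale differs between panels. The 3 lines of Rbp2 and of Lrat all run the same way, lower in the knockout, while those of the other 7 genes cross or run both ways.

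The Rbp2 probe was far above the compressed band, brighter than 98.6% of all probes, and Rbp2 had the largest difference of the 9 genes. It read 12.86, 12.28 and 12.69 on knockout arrays 1 to 3, against 13.06, 12.50 and 12.91 on control arrays 1 to 3. Replicate 2 was the lowest of both groups, so the groups overlapped although each knockout array lay below the control array of its number. The means were 12.61 ± 0.30 in knockout and 12.82 ± 0.29 in control organoids (SD, n = 3 each), a difference of -0.21 ± 0.20 (SE), or 0.863 times the control level, with a 95% interval from -0.70 to 0.27 (limma adjusted p = 0.935). By pair of replicate numbers the difference was -0.21, -0.22 and -0.21. The difference moved to -0.05 without knockout replicate 2 and to -0.09 without control replicate 1, and it was -0.37 without control replicate 2 and -0.34 without knockout replicate 1, each of which leaves an array without its pair. Centring the arrays on housekeeping genes, which moved the median of all genes by -0.16, gave -0.37 for Rbp2 (limma adjusted p = 0.574). In that setting every member had the same SE, 0.1733, and the adjusted p of every other member was 0.574 or 0.575 too. That adjusted p is therefore not particular to Rbp2. Its unadjusted p was 0.0309, against 0.195 to 0.452 for the other members (limma), and the share of all genes with such a p was not counted there.

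With the replicate number as a block, the standard error of the Rbp2 difference was 0.022 and its 95% interval ran from -0.27 to -0.15. The unadjusted p was then 0.000399, but adjusted over all genes it was 0.104 and did not pass (limma). Rbp2 was the 1 member of 9 with an unadjusted p under 0.05 in that fit, where 10.9% of all genes had one, and 0.0472% of all genes passed after adjustment. The second Rbp2 probe, ILMN_2813859, read 12.46, 11.95 and 12.08 on knockout arrays and 12.73, 12.13 and 12.55 on control arrays. It too was lower in each pair, by amounts that varied more (-0.28, -0.18 and -0.48), with a mean difference of -0.31 ± 0.19 (SE; adjusted p = 0.925 over all probes, and 0.249 with the block). In organoids of mixed cells, fewer cells of a type and less RNA per cell cannot be told apart.

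**Figure D2:**
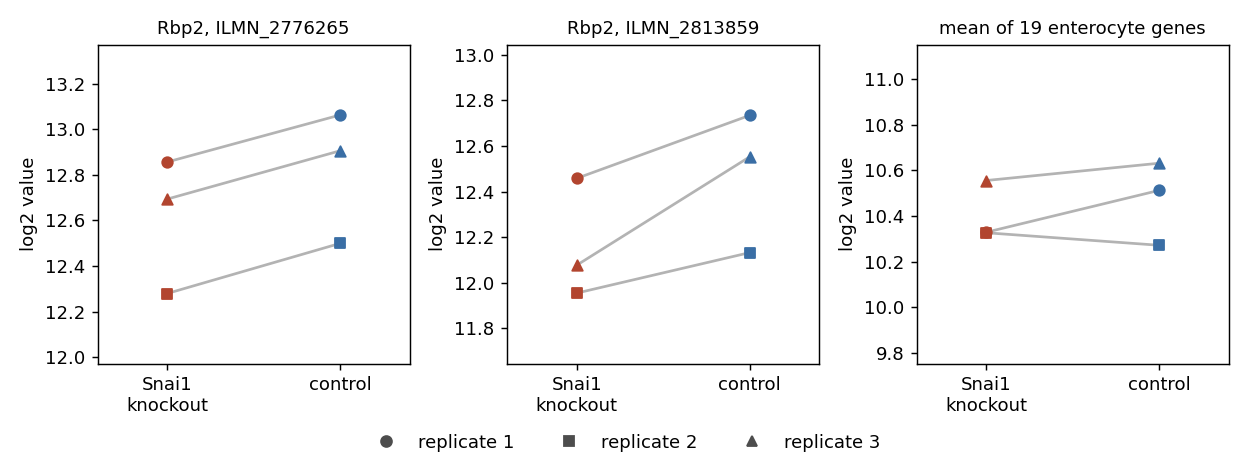
Log2 values of the 2 Rbp2 probes and of the mean of 19 enterocyte genes on each array, Snai1 knockout (red) left of control (blue), with grey lines joining equal replicate numbers; each panel spans the same range. Both Rbp2 probes are lower in the knockout in all 3 pairs, while the enterocyte mean is higher in the knockout in pair 2.

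Enterocyte genes were set beside Rbp2, since Rbp2 is made by enterocytes. The mean of 19 enterocyte markers was 10.33, 10.33 and 10.56 on knockout arrays, against 10.51, 10.27 and 10.63 on control arrays, lower in the knockout in pairs 1 and 3 and higher in pair 2. None of the 19 passed the test, 5 were higher and 14 lower on average, and the median difference was -0.02, against -0.0006 for all genes. At an unadjusted p under 0.05 there were 3, all lower (limma), where 7.22% of all genes had one. In 3 of 3 pairs 6 of the 19 were lower, where 15.1% of all genes were, and 0 were higher, where 15.7% were. Rbp2 minus this mean was 2.53, 1.95 and 2.14 on knockout arrays and 2.55, 2.23 and 2.27 on control arrays, so it stood lower in the knockout in each pair, by little in pair 1. The mean includes markers at the compressed low end, such as Fabp1 and Fabp2, so a change in it may be understated. Among the 4 brightest markers the difference was -0.0007 for Sis, -0.28 for Apoa1, -0.10 for Apoa4 and 0.19 for Slc5a1. Of these only Apoa1 was lower in 3 of 3 pairs. Over the 6 arrays Rbp2 and the mean correlated at r = 0.608. The part of enterocyte abundance in the Rbp2 values was not tested.

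Lrat, the enzyme that Rbp2 supplies, lay near the upper quartile of all values. It read 8.37, 8.17 and 8.14 on knockout arrays, against 8.41, 8.20 and 8.16 on control arrays. Replicate 1 was the highest of both groups, and each knockout array lay slightly below the control array of its number. The difference was -0.04 ± 0.09 (SE; 95% interval -0.26 to 0.18; limma adjusted p = 0.991), and -0.04, -0.03 and -0.03 by pair. With the block its adjusted p was 0.725. Rbp2 and Lrat were thus the 2 members of 9 lower in 3 of 3 pairs, as were 15.1% of all genes, and no member was higher in 3 of 3 pairs, as were 15.7%.

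Of the 3 retinaldehyde dehydrogenases only the Aldh1a1 probe was bright, above 95.29% of all probes. It read 10.99, 11.01 and 11.09 on knockout arrays, against 11.26, 10.996 and 11.03 on control arrays. Control replicate 1 was above the other 5 arrays, and the other control values lay within the knockout range. The difference was -0.06 ± 0.07 (SE; 95% interval -0.25 to 0.12; limma adjusted p = 0.95) and turned to 0.02 without control replicate 1. Aldh1a7, a close paralog of Aldh1a1, had its own probe at 9.85 ± 0.03 in knockout and 9.84 ± 0.14 in control organoids (SD, n = 3 each). It was named after its values were seen, and whether either probe reads both transcripts was not tested.

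Aldh1a2, which in the gut is best known from stromal and dendritic cells, read 7.94, 7.94 and 7.83 on knockout arrays, against 7.90, 7.96 and 7.83 on control arrays. Its second probe averaged 7.90 on knockout and 7.87 on control arrays. Both probes lay at the compressed low end, and replicate 3 was the lowest of both groups on the first probe. The difference was 0.0053 ± 0.05 (SE; adjusted p = 0.999). Aldh1a3 had 3 probes, all dim. The brightest read 7.84, 7.85 and 7.86 on knockout arrays and 7.83, 7.86 and 7.88 on control arrays. A nearly equal probe, ILMN_2761436, averaged 7.88 ± 0.05 on knockout and 7.83 ± 0.01 on control arrays (SD, n = 3 each), and the third 7.78 and 7.79. These probes differed in sign, at -0.0047, 0.05 and -0.0057, and none passed.

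**Figure D3:**
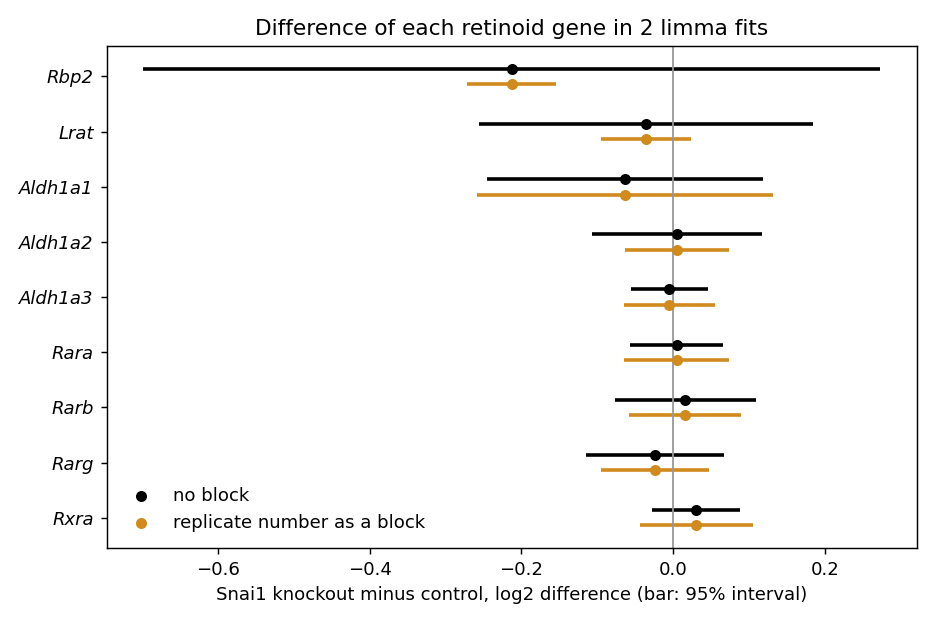
Difference of each gene between Snai1 knockout and control organoids on the log2 scale, with 95% intervals from the limma fit without a block (black) and with the replicate number as a block (orange). Only the blocked interval of Rbp2 leaves out 0, and no adjusted p over all genes is under 0.05.

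The retinoic acid receptors were dim on every probe. Rara, the receptor most widely expressed across tissues, read 7.85, 7.88 and 7.87 on knockout arrays, against 7.84, 7.84 and 7.90 on control arrays, a difference of 0.005 ± 0.025 (SE). Rarb, the retinoic acid target with the DR5 repeat printed above, read 7.90, 7.81 and 7.79 on knockout arrays, against 7.85, 7.83 and 7.77 on control arrays, a difference of 0.02 ± 0.04 (SE; adjusted p = 0.990). Replicate 1 was the highest of both Rarb groups, and its brightest probe exceeded 31.39% of all probes. The other 2 Rarb probes averaged 7.83 and 7.80 on knockout arrays and 7.81 and 7.80 on control arrays.

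Rarg read 7.97, 7.92 and 7.96 on knockout arrays, against 8.04, 7.91 and 7.97 on control arrays. Its difference was -0.02 ± 0.04 (SE; adjusted p = 0.974), and its other probes differed by -0.04 and 0.04, so the 3 probes had no common sign. Rxra, the common heterodimer partner, read 8.11, 8.09 and 8.11 on knockout arrays, against 8.05, 8.11 and 8.06 on control arrays. The lowest 2 Rxra values were control arrays, the groups overlapped through control replicate 2, and the difference was 0.03 ± 0.02 (SE; 95% interval -0.03 to 0.09; adjusted p = 0.908). Over all 17 probes of the 9 genes, none passed in the fit of all probes, in which 0.0883% of probes passed, and the lowest unadjusted p was 0.127. After subtracting the lowest value on the linear scale, which stretches the low end, the differences were 0.036 ± 0.133 for Rara, 0.097 ± 0.185 for Rarb, -0.094 ± 0.147 for Rarg and 0.108 ± 0.120 for Rxra (SE), each smaller than its error. Differences as small as these were not detectable at such levels, and the interval of a compressed difference does not bound the true one.

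The remaining genes of the pathway came from 5 lists that held 82 genes beside the members, of which 72 were measured. None passed, and at an unadjusted p under 0.05 there were 4 higher and 3 lower (limma), where 7.22% of all genes passed that level. With the block none passed either, and 12 of 72 had an unadjusted p under 0.05, against 10.9% of all genes. In 3 of 3 pairs 12 were lower and 10 higher, against 15.1% and 15.7% of all genes. Their median difference was -0.0007.

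**Figure D4:**
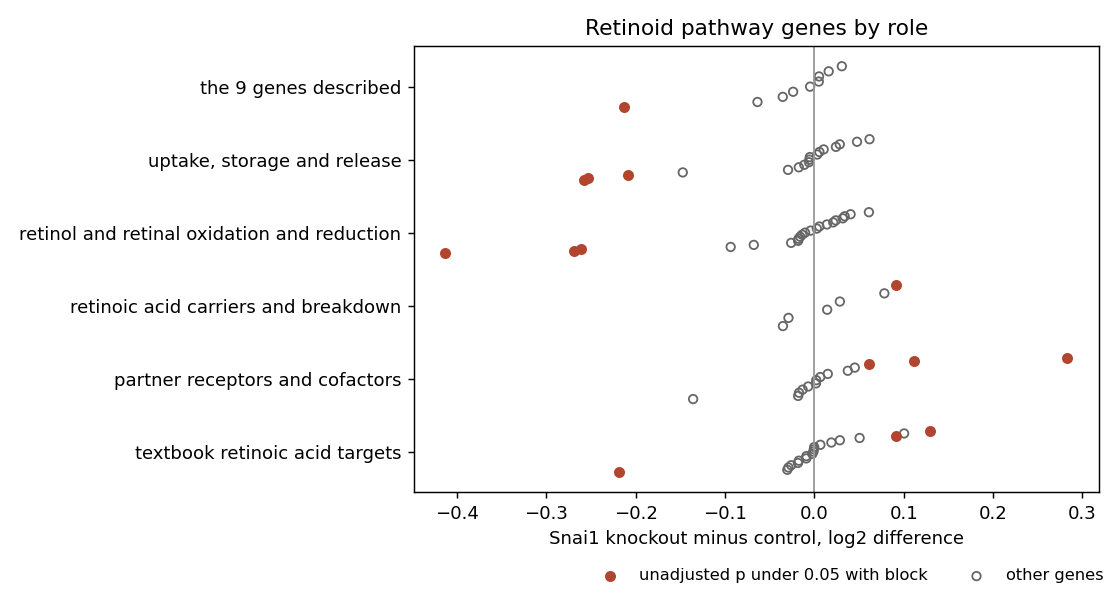
Difference between Snai1 knockout and control organoids on the log2 scale for the 9 genes and for the measured genes of the 5 pathway lists, 1 point a gene; filled points have an unadjusted p under 0.05 with the replicate number as a block. No gene passed after adjustment, and 12 of the 72 pathway genes are filled, where 10.9% of all genes had such a p. Filled points lie left of 0 for 3 of 17 genes in the uptake list and for 3 of 21 in the oxidation list. In the list of carriers and breakdown enzymes the only filled point, Cyp26b1, lies right of 0. Filled points also lie right of 0 for Rai14, Pml and Prame among partner receptors and cofactors, and on both sides among the textbook targets. The median differences of the 5 lists ran from -0.0103 to 0.0215.

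In the uptake, storage and release list, 17 of 20 genes were measured, 7 were higher and 10 lower on average, and the median difference was -0.0054. Rbp7, a further cellular retinol-binding protein, read 10.14, 9.86 and 9.75 on knockout arrays, against 10.26, 10.16 and 10.09 on control arrays. Its lowest 2 values were knockout arrays, the groups overlapped through knockout replicate 1, and the difference was -0.25 ± 0.10 (SE; adjusted p = 0.694, and 0.195 with the block). Bco2, which cleaves carotenoids off centre, read 10.20, 9.85 and 9.75 on knockout arrays, against 10.35, 10.12 and 10.11 on control arrays, a difference of -0.26 ± 0.13 (SE; adjusted p = 0.783, and 0.183 with the block). Dgat1, which makes triglyceride, can esterify retinol and is also among the enterocyte markers above, differed by -0.21 ± 0.08 (SE). Ttr, the plasma carrier of the retinol-binding protein Rbp4, differed by -0.15. The first 3 of these were lower in 3 of 3 pairs, and no other gene of the 17 was, where 15.1% of all genes were. In the same list 1 gene was higher in 3 of 3 pairs, where 15.7% of all genes were. Bco1, named after its values were seen, was level at 9.50 ± 0.19 in knockout and 9.47 ± 0.15 in control organoids (SD, n = 3 each).

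Among the 21 enzymes that oxidise or reduce retinol or retinal, all measured, 9 were higher and 12 lower, with a median difference of -0.01. Rdh7, a retinol dehydrogenase with near-identical relatives that its probe may also read, was 9.80, 9.70 and 9.49 on knockout arrays, against 10.03, 9.86 and 9.89 on control arrays. All 3 knockout values lay below all 3 control values, with a difference of -0.26 ± 0.09 (SE; adjusted p = 0.581, and 0.198 with the block). Adh7, an alcohol dehydrogenase active on retinol, differed by -0.27 ± 0.15 (SE). Rdh16 and Rdh12 differed by 0.06 and 0.04 at the compressed low end. Both were higher in 3 of 3 pairs, with no overlap of the groups. Adh4, named after its values were seen, had the largest difference of the list, at 9.58, 9.58 and 8.84 on knockout arrays, against 9.78, 10.13 and 9.34 on control arrays, or -0.41 ± 0.28 (SE; adjusted p = 0.878, and 0.184 with the block). Like Rbp2 it was lower in 3 of 3 pairs while its groups overlapped. Of the 21 enzymes 3 had groups that did not overlap, where 12.0% of all genes did so. In 3 of 3 pairs 4 were lower and 2 higher, against 15.1% and 15.7% of all genes.

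Carriers and breakdown enzymes of retinoic acid were mostly dim, and 6 of 7 were measured. Cyp26b1, which degrades retinoic acid and is also a target of it, read 7.95, 7.99 and 7.87 on knockout arrays, against 7.86, 7.83 and 7.84 on control arrays. The groups did not overlap, and the difference was 0.09 ± 0.03 (SE; adjusted p = 0.631, and 0.433 with the block). Cyp26a1, its relative and a classical retinoic acid target, differed by 0.03, Crabp2, which carries retinoic acid to its receptors, by -0.03, and Fabp5, another carrier, by -0.04.

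In the list of partner receptors and cofactors 14 of 17 genes were measured, 9 higher and 5 lower, with a median difference of 0.0045. The list also holds Rai14, an actin-binding protein first described as induced by retinoic acid, which is neither a partner receptor nor a cofactor. Rai14 had the lowest p of all 72 pathway genes in the fit without the block. With the block Bco2 was lower, at an unadjusted p of 0.00417, against 0.00442 for Rai14. Rai14 read 9.15, 9.26 and 9.26 on knockout arrays, against 8.98, 8.85 and 8.99 on control arrays, so the groups did not overlap, and the difference was 0.28 ± 0.05 (SE; adjusted p = 0.245, and 0.184 with the block). Pml, a nuclear body protein fused to RARA in human promyelocytic leukaemia, differed by 0.11 ± 0.03 (SE; adjusted p = 0.451), Prame, which represses retinoic acid receptors in human cells, by 0.06 at the low end, and Lcor, a corepressor of nuclear receptors, by -0.14. The Rxr relative Rxrb was bright and level, at 10.73 ± 0.04 in knockout and 10.73 ± 0.11 in control organoids (SD, n = 3 each). It was named after its values were seen.

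In the list of textbook targets 19 of 23 genes were measured, 7 higher and 12 lower, with a median difference of -0.001. Foxa1, a pioneer transcription factor, read 9.88, 9.85 and 9.96 on knockout arrays, against 9.77, 9.79 and 9.75 on control arrays. Its groups did not overlap, and it differed by 0.13 ± 0.03 (SE; adjusted p = 0.419, and 0.334 with the block). Meis2, a homeobox gene, went the other way, at 8.54, 8.23 and 8.45 on knockout arrays, against 8.64, 8.61 and 8.63 on control arrays, with no overlap and a difference of -0.22 ± 0.08 (SE; adjusted p = 0.613). Cyp26b1 and Crabp2, described above, are also in this list. Across the 72 genes, 9 showed no overlap of the groups, where 12.0% of all genes did so.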

How the data were processed

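Biotinylated cRNA was hybridised to Illumina arrays, per the labels' protocols. The deposited table holds 1 value per probe and array on a log scale, taken as log2. Sorted by size, the values of any pair of arrays agreed to within 0.0019, which is what quantile normalization by the authors leaves, and nothing further was done to them. No label names the log base, the software or how background was handled.

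Of 45281 probes, 34885 had 1 gene in the platform's annotation, 18 several and 10378 none listed. Gene numbers of 34807 probes were found in the table of GRCm38.p6, which left every symbol as it was. Each gene took its brightest probe by mean, with no filter on dim genes. Groups came from the sample titles. Knockout was compared with control in limma 3.58.1 (R 4.3.3; lmFit, eBayes, Benjamini-Hochberg over 19057 genes), a script tested on simulated data. The members, lists and tests were chosen with earlier results of these data known. Named genes are the members, the 4 pathway genes of lowest p per list and the 4 brightest markers per list. Others are marked.

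Replicate numbers were taken to pair the arrays, since deviations from the group means correlated at r = 0.349, 0.327 and 0.456 for equal numbers, and at most 0.003 otherwise. Because each group was centred on its own mean, positive values for equal numbers push the others below 0. The low values for unequal numbers are therefore not separate support. What a number stands for is not labelled. Alternatives covered the block, probe handling, normalization, scaling, compression, dim genes, variance model, array weights and leaving out each array. The number of arrays, not a depth, limits precision. Promoter sequences are RefSeq's.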

Additional observations from a re-analysis of the deposited data

How the results depend on the processing

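None of the 9 genes and none of the 72 pathway genes passed in any of the 16 alternatives in which they were tested, leaving out each array included. The lowest adjusted p of a member in any of them was 0.104, for Rbp2 with the replicate block, and Rbp2 kept its sign in all of them, between -0.37 and -0.05. The block moved no call of a member. With it 9 genes in all passed, against 25 without it, and these 9 were all among the 25. That count was 42 after subtracting the lowest value on the linear scale, 41 with only genes above the upper quartile (a setting that tested 2 members, Rbp2 and Aldh1a1, and 27 of the 72 pathway genes), 60 with a variance trend, and 4 to 23 leaving out 1 array. Centring on 9 housekeeping genes moved the median of all genes by -0.16. With it Aldh1a2 and Rara stood at -0.16 each (-0.1558 and -0.1561), Rarb at -0.15 (-0.1451) and Rxra at -0.13 (-0.1304), all turned in sign and all above that median. The mean of all Aldh1a3 probes gave 0.014. Leaving out 1 array, differences ran from -0.1085 to 0.042 for Lrat, -0.113 to 0.0187 for Aldh1a1, -0.0262 to 0.0423 for Aldh1a2, -0.0162 to 0.0057 for Aldh1a3, -0.006 to 0.0249 for Rara, -0.0183 to 0.0363 for Rarb and -0.0545 to 0.0092 for Rarg, so these signs are not settled. With 3 arrays a group and compressed low values, differences of the receptors as small as those measured cannot be resolved here.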

Other observations

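Genes with a pattern like that of Rbp2 were looked up among 6968 others above the upper quartile, by Pearson correlation over the 6 arrays. Agpat2, an acyltransferase of glycerolipid synthesis, came first (r = 0.988), followed by Bahd1 (r = 0.979) and Dolpp1 (r = 0.979). Agpat2 read 10.37, 10.17 and 10.31 on knockout arrays and 10.42, 10.21 and 10.37 on control arrays, with replicate 2 the lowest of both groups, as for Rbp2. For Aldh1a1 the nearest were Mcoln2 (r = 0.986), Gtpbp4 (r = 0.980) and Glyr1 (r = 0.969). Their Spearman coefficients were 0.943, 0.657 and 0.6, so the order of the arrays was less alike for Gtpbp4 and Glyr1 than for Mcoln2. Of the genes compared, 21 were above 0.95 for Rbp2 and 6 for Aldh1a1. The values describe 6 arrays that share pairs and normalization.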
